A study of Mus musculus with 7 samples.

Results

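The 9 genes Hmgcs1, Mvk, Pmvk, Mvd, Idi1, Fdps, Fdft1, Sqle and Ggps1 encode enzymes that build mevalonate from acetyl units, turn it into isoprenoid diphosphates and join these into squalene. Their chromatin was followed in mouse bone marrow-derived macrophages, which are macrophages grown in culture from marrow progenitors. The assay was chromatin immunoprecipitation with sequencing (ChIP-seq) for dimethylated lysine 79 of histone H3, H3K79me2. All regions of the deposited read-count table that overlapped the annotated span of a member gene on mm10 were taken, which gave 18 of 29397 regions, with at least 1 region for each of the 9 genes. Where a gene had several regions, the one with the highest mean count stood for it and is called its main region below. Of 21900 annotated coding genes, 9514 (43.4%) were overlapped by a region.

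The treated group held 3 libraries from C57BL/6 marrow cultures that differentiated in the presence of 1 µM SGC0946, a small molecule that blocks DOT1L, the enzyme that methylates H3K79. The control group held 3 libraries from cultures that received the solvent DMSO. All cultures grew for 7 to 8 days in medium conditioned by L929 cells, which secrete M-CSF. The growth protocol names both WT and KO mice, and the labels do not tie these libraries to either. The submitters' design text calls the 3 libraries of each group biological replicates without naming separate animals, so p-values measure the spread between these cultures only.

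DOT1L places methyl groups on H3K79 over the early transcribed portion of genes that RNA polymerase II reads, so the mark tracks transcribed gene bodies. The mevalonate pathway supplies sterols, ubiquinone, dolichol and the prenyl groups that anchor small GTPases to membranes. SREBP-2, a transcription factor held in the endoplasmic reticulum while sterols are plentiful, drives most of its genes. In macrophages, which take up cholesterol from other cells and lipoproteins, this supply is tightly balanced against uptake and export. DOT1L is its own enzyme class, with a catalytic fold unlike that of other lysine methyltransferases.

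The library totals differed before any gene was considered. The treated libraries held 3.13, 3.01 and 2.95 M counts, against 16.7, 17 and 19.5 M in the DMSO libraries. The mean was 3.03 ± 0.0922 M with SGC0946 and 17.7 ± 1.54 M with DMSO (SD, n = 3 each), so the treated total was 17.1% of the DMSO total. The groups did not overlap (2-sided exact permutation p = 0.1, and with 3 libraries a side no smaller p exists). Fold changes of the members' main regions are therefore given below in 2 ways. Unscaled counts carry this difference in totals, and the share of the library's counts sets it aside. Fold changes of neighbouring and listed genes are given on the share only. Whether libraries were thinned, filtered for duplicates or sequenced to unequal depth is not stated in the labels, so depth and amount of the mark cannot be told apart in unscaled counts. Regions overlapped all 8 macrophage marker genes examined, at 13 to 58.7 counts per kb with SGC0946 and 84.5 to 339 with DMSO. Regions also lay over 1 of 4 T cell genes, Lck, at 11.3 counts per kb with SGC0946 and 2.67 with DMSO, and over 2 of 5 granulocyte or erythroid genes, Mpo and Klf1, at 12 to 18 with SGC0946 and 7.33 to 8 with DMSO. Of 2 dendritic cell genes, Zbtb46 had a region, at 15.6 counts per kb with SGC0946 and 124 with DMSO, and Flt3 had none. The 4 B cell and 5 stromal or endothelial genes had none either. The sparsest 25% of all regions averaged 6.13 counts per kb with SGC0946 and 21.8 with DMSO. Lck, Mpo and Klf1 thus lay below that average with DMSO and above it with SGC0946. Whether these regions or the Zbtb46 region reflect other cells was not tested. The part of any such cells in the results below was not tested either. In a bulk culture, fewer marked cells and less of the mark per cell cannot be told apart.

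The promoters of 6 members could be read from RefSeq windows (build GRCm38.p6, which corresponds to mm10), each 250 bases before and 50 bases after an annotated start site. They were searched on both strands for TCACNCCAC, a form of the sterol response element that SREBP binds, for CCAAT, the box bound by NF-Y, and for GGGCGG, a GC box bound by Sp1. NF-Y and Sp1 are known partners of SREBP at sterol-regulated promoters. The 4 windows below are shown because they cover the member that kept the largest percentage of its counts (Hmgcs1), the member that kept the smallest (Mvd), and Mvk and Idi1, whose percentage lay near that of the median gene. Capitals mark matches to any of the 3 motifs, and each window is written 5′ to 3′ on the strand of its gene.
Hmgcs1, chr13:119690101-119690400, plus strand: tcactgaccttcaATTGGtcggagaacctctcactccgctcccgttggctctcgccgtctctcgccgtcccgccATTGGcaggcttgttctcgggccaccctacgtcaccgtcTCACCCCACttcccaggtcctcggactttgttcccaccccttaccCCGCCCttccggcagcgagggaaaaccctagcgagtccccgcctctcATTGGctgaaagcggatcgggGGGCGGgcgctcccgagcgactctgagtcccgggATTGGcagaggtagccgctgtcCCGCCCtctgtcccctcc
Mvk, chr5:114444019-114444318, plus strand: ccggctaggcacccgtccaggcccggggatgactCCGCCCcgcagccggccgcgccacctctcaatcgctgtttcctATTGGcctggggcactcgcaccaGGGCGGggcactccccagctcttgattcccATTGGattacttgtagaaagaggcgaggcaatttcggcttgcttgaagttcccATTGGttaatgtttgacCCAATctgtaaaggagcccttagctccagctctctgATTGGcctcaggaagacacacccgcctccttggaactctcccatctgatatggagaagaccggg
Mvd, chr8:122443373-122443672, minus strand: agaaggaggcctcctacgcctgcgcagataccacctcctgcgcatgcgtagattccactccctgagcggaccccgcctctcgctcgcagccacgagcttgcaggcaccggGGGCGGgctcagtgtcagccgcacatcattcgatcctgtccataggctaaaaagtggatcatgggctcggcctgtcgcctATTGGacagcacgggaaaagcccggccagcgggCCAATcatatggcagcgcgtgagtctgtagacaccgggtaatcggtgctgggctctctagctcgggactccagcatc
Idi1, chr13:8885356-8885655, plus strand: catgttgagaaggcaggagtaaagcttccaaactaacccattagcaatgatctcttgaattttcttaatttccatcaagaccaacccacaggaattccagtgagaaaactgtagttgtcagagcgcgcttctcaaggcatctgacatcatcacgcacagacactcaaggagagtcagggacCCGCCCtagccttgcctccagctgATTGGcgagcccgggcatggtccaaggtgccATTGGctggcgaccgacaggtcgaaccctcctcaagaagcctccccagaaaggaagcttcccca
The Hmgcs1 window held 1 sterol response element, TCACCCCAC, whose first base lay at -137 from the start site, along with 4 NF-Y boxes and 3 GC boxes. The Mvk window held 5 NF-Y boxes and 2 GC boxes, and the Mvd and Idi1 windows held 2 NF-Y boxes and 1 GC box each. The Ggps1 window held 3 NF-Y boxes, and of the windows at the 2 annotated Pmvk start sites 1 held a single NF-Y box. Of 21263 coding gene windows of this length, 1.19% held the sterol response element, 38.2% CCAAT and 46.2% GGGCGG. Among the 9908 windows of genes with a region the shares were 1.09%, 37.7% and 63%. A match is a run of letters and no evidence of binding, and the missing match in the other windows says nothing about SREBP there.

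The regions began at different places relative to these start sites. The Hmgcs1 region ran over chr13:119689277-119703368, 14092 bp, of which 13018 bp lay inside the gene and covered 72.7% of its span. It began at -1074 bp from the start site and covered all 300 bases of the promoter window. The Mvd region, chr8:122439191-122443390, began 32 bp inside the gene and covered 18 bases of its window. The main regions of Idi1, Ggps1 and Mvk began 164, 463 and 563 bp downstream of the start site and covered 0 bases of theirs. For Pmvk the main region began 266 bp after the second annotated start, and no region lay at the first one. The remaining main regions lay at chr5:114444832-114445885 (Mvk), chr3:89459837-89460745 (Pmvk), chr13:8885770-8889875 (Idi1) and chr13:14057926-14063025 (Ggps1), and at chr3:89096202-89102124 (Fdps), chr14:63158270-63178078 (Fdft1) and chr15:59314982-59325346 (Sqle). They covered from 6.28% of the Pmvk span to 68.8% of the Fdps span. Exonic and intronic parts were not separated because the annotation used gives spans only.

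The 9 genes carried from 1 to 4 regions each. Mvk, Pmvk, Idi1 and Fdps had 1, Mvd and Ggps1 had 2, Hmgcs1 and Sqle had 3, and Fdft1 had 4. No member region overlapped another coding gene. The Mvd regions also overlapped the long noncoding gene Gm51557 and the Fdps region the small nuclear RNA gene Gm22935, whose reads cannot be separated from those of the enzyme genes. The main regions were 909 to 19809 bp long, with a median of 5100 bp, against a median of 6379 bp for the 9089 coding genes tested. The 9 further regions were short, 500 to 1646 bp, and sparse, with mean counts of 2.333 to 8 in SGC0946 libraries and 15 to 56.67 in DMSO libraries.

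**Figure D1:**
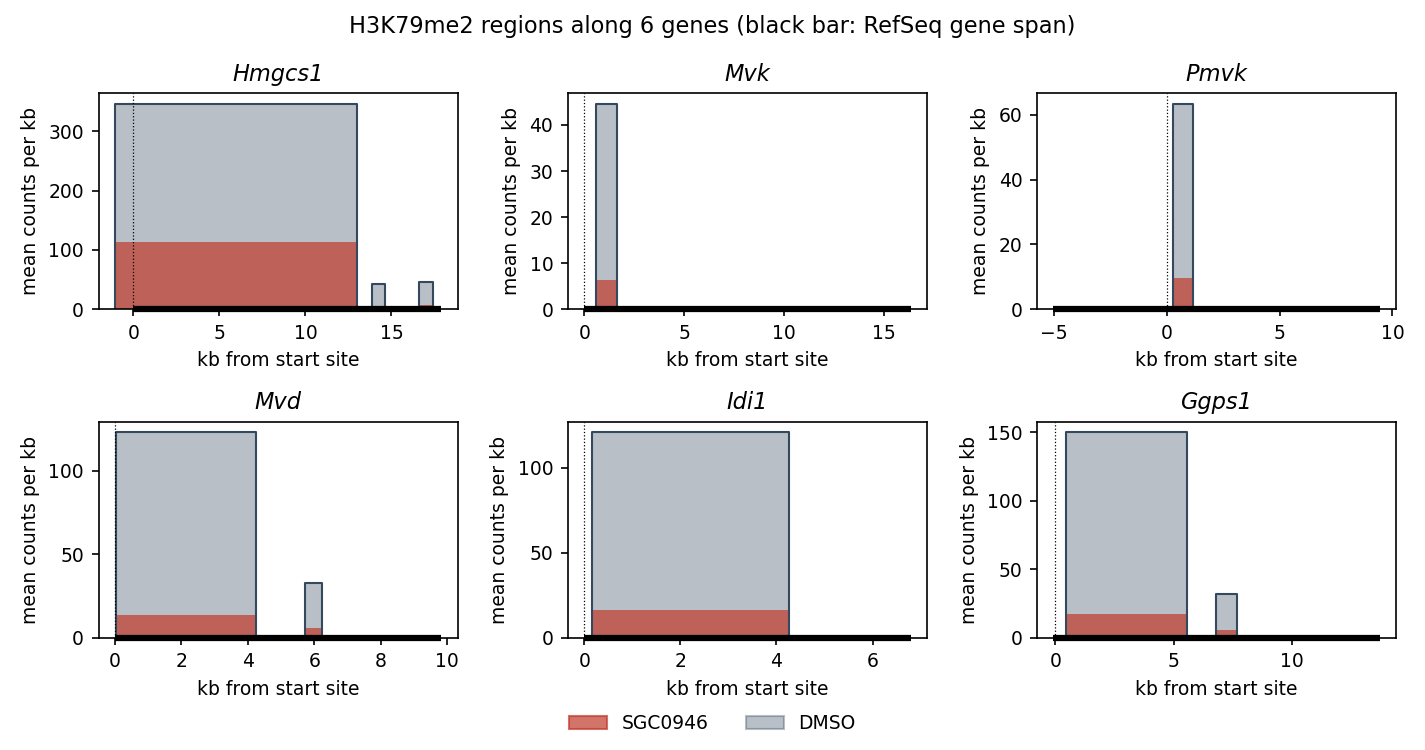
Mean counts per kb (vertical axis) of every region of the 6 members with an annotated start site, at its distance from that site in kb along the gene (horizontal axis), with SGC0946 and DMSO bars both drawn from 0 and overlaid, 3 libraries each. The Hmgcs1 region starts upstream of 0 and reaches 113 counts per kb with SGC0946 and 346 with DMSO, while the only Mvk and Pmvk regions stay at 6.33 and 9.53 with SGC0946 and 44.6 and 63.4 with DMSO.

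In both groups the mark was densest over Hmgcs1 and thinnest over Mvk. With SGC0946 they held 113 and 6.33 counts per kb, a range of 17.9-fold, and with DMSO 346 and 44.6, a range of 7.76-fold. The treated range rests on 3, 7 and 10 Mvk counts, at the level of the sparsest 25% of regions (6.13 counts per kb). A wider spread with SGC0946 cannot be read from it. Next to Hmgcs1 with SGC0946 came Sqle (35.6), Fdft1 (25.7), Fdps (24.6), Ggps1 (17.5), Idi1 (16.4), Mvd (13.4) and Pmvk (9.53), in counts per kb. With DMSO the order was Fdft1 (208), Sqle (200), Fdps (174), Ggps1 (150), Mvd (123), Idi1 (121) and Pmvk (63.4). Some neighbours in these orders had overlapping ranges of mean ± 1 SD. With SGC0946 these were Fdft1 and Fdps, Ggps1 and Idi1, Mvd and Pmvk, and Pmvk and Mvk, and with DMSO all neighbours from Fdft1 down to Idi1. The SDs carry the differences in total between libraries that all genes shared, so an overlap does not show an unsettled order. Orders within single libraries were not compared. Among coding genes, 98% had a lower DMSO density than Hmgcs1, whereas 8.78% were lower than Mvk and 20.9% lower than Pmvk. The median coding gene held 112 counts per kb with DMSO, so 7 members sat above it and the kinases Mvk and Pmvk below.

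All 9 main regions had fewer counts with SGC0946 in the unscaled comparison (edgeR quasi-likelihood test, adjusted p under 0.05). This holds for 99.7% of 24895 regions tested and 99.8% of 9094 coding genes, so the count of members is at the background. Mvk and Pmvk entered this test through their DMSO counts, since no more than 1 of their SGC0946 libraries reached 10 counts, so their calls add no support. In every one of the 18 member regions each SGC0946 count lay below each DMSO count, as in 92.4% of all 29397 regions. The percentage kept, used below for the mean SGC0946 count over the mean DMSO count, carries any difference in depth between the groups. It ran from 10.9% in Mvd to 32.8% in Hmgcs1. Its median was 14.1% over the members and 14% over coding genes (middle 50% of genes, 12.4 to 17%).

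Hmgcs1, the cytosolic HMG-CoA synthase that joins acetyl units into HMG-CoA, kept the largest percentage of its counts. Its counts were 1691, 1550 and 1550 in SGC0946 libraries, against 4620, 4597 and 5406 in DMSO libraries. The means were 1597 ± 81.4 with SGC0946 and 4874 ± 461 with DMSO (SD, n = 3 each), and the unscaled log2 fold change was -1.61 ± 0.10 (SE, as after every ± on a log2 fold change below), with an adjusted p of 2.6e-57. The lowest DMSO library held far more than the highest treated one, and 97.4% of coding genes kept a smaller percentage.

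Mevalonate is then phosphorylated by Mvk, mevalonate kinase, and by Pmvk, phosphomevalonate kinase. Mvk had 3, 7 and 10 counts with SGC0946, against 50, 46 and 45 with DMSO (log2 fold change -2.79 ± 0.33, adjusted p = 5.6e-17), with 14.2% kept. Pmvk had 14, 7 and 5 counts with SGC0946, against 52, 58 and 63 with DMSO (log2 fold change -2.72 ± 0.30, adjusted p = 2.9e-19), with 15% kept. Both were the only main regions with under 10 counts in a treated library, so their treated level is known only roughly. The sparsest 25% of all regions (7349) averaged 6.13 counts per kb with SGC0946 and 21.8 with DMSO. Mvk with SGC0946, at 6.33 counts per kb, stood at that level, and Pmvk, at 9.53, just above it, while with DMSO both exceeded the sparse regions. How far reads unrelated to the mark make up these counts was not tested.

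Mvd, which decarboxylates mevalonate diphosphate into isopentenyl diphosphate, kept the smallest percentage among the members. Its small distance from Ggps1, which kept 11.7%, was not tested. Mvd had 61, 53 and 55 counts with SGC0946, against 517, 472 and 559 with DMSO (log2 fold change -3.19 ± 0.16, adjusted p = 3.9e-90). Only 5.77% of coding genes kept a smaller percentage than the 10.9% of Mvd. Idi1, the isomerase that converts isopentenyl into dimethylallyl diphosphate, had 71, 72 and 59 counts with SGC0946, against 463, 464 and 558 with DMSO. Its log2 fold change was -2.88 ± 0.15 (SE; adjusted p = 5.1e-77), and the 13.6% kept lay close to the median gene.

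Prenyl chains are assembled by Fdps, farnesyl diphosphate synthase, and by Ggps1, which adds a further unit to give geranylgeranyl diphosphate for protein prenylation. Fdps had 165, 136 and 136 counts with SGC0946, against 1042, 924 and 1133 with DMSO (log2 fold change -2.83 ± 0.13, adjusted p = 4.9e-103), with 14.1% kept. Ggps1 had 91, 91 and 86 counts with SGC0946, against 712, 713 and 864 with DMSO (log2 fold change -3.09 ± 0.14, adjusted p = 1.4e-103), with 11.7% kept. Fewer coding genes, 14.4%, lay below Ggps1 in percentage kept than below Fdps, 51.3%.

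Squalene is made by Fdft1, squalene synthase, and oxidised by Sqle, squalene epoxidase, a rate-limiting step on the way to sterols. Fdft1 had 497, 502 and 529 counts with SGC0946, against 4041, 3857 and 4483 with DMSO (log2 fold change -3.02 ± 0.11, adjusted p = 3.2e-165). Sqle had 383, 372 and 353 counts with SGC0946, against 1927, 1967 and 2321 with DMSO (log2 fold change -2.49 ± 0.11, adjusted p = 1.9e-105). With SGC0946 these consecutive enzymes held 25.7 and 35.6 counts per kb, against 208 and 200 with DMSO. Fdft1 thus kept 12.3% and Sqle 17.8%.

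**Figure D2:**
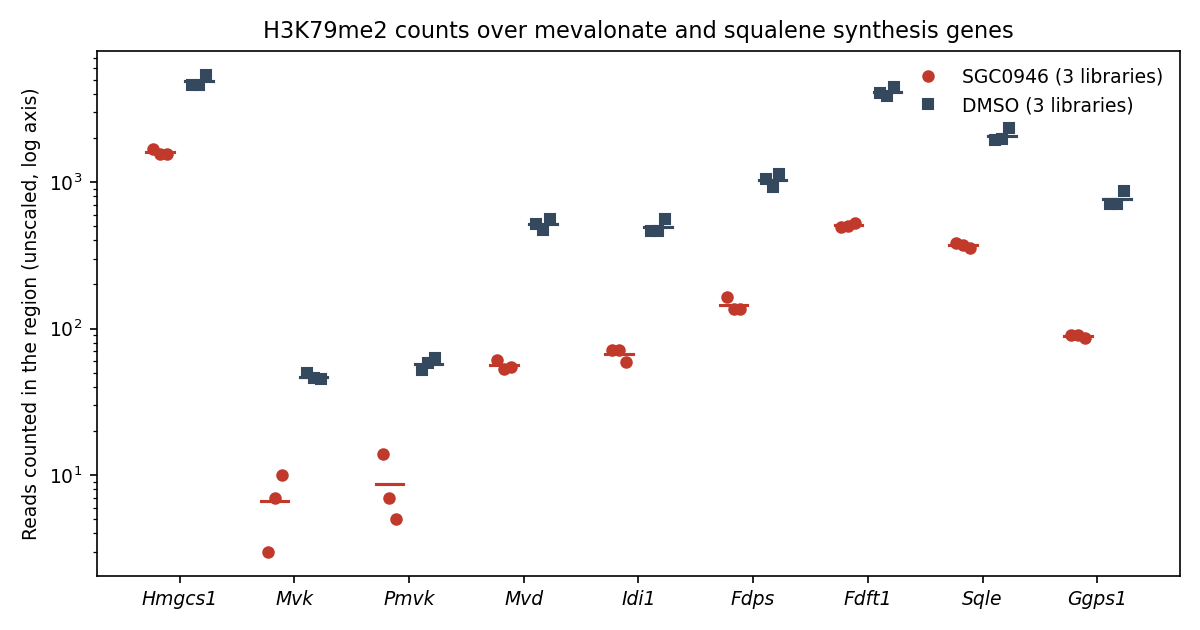
Read counts of the main region of each of the 9 members on a log axis, with 1 point for each of the 3 SGC0946 and 3 DMSO libraries and a line at the group mean. In every member the SGC0946 points lie below the DMSO points, with the smallest gap at Hmgcs1 (means 1597 and 4874) and single-digit counts in treated libraries at Mvk and Pmvk.

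**Figure D3:**
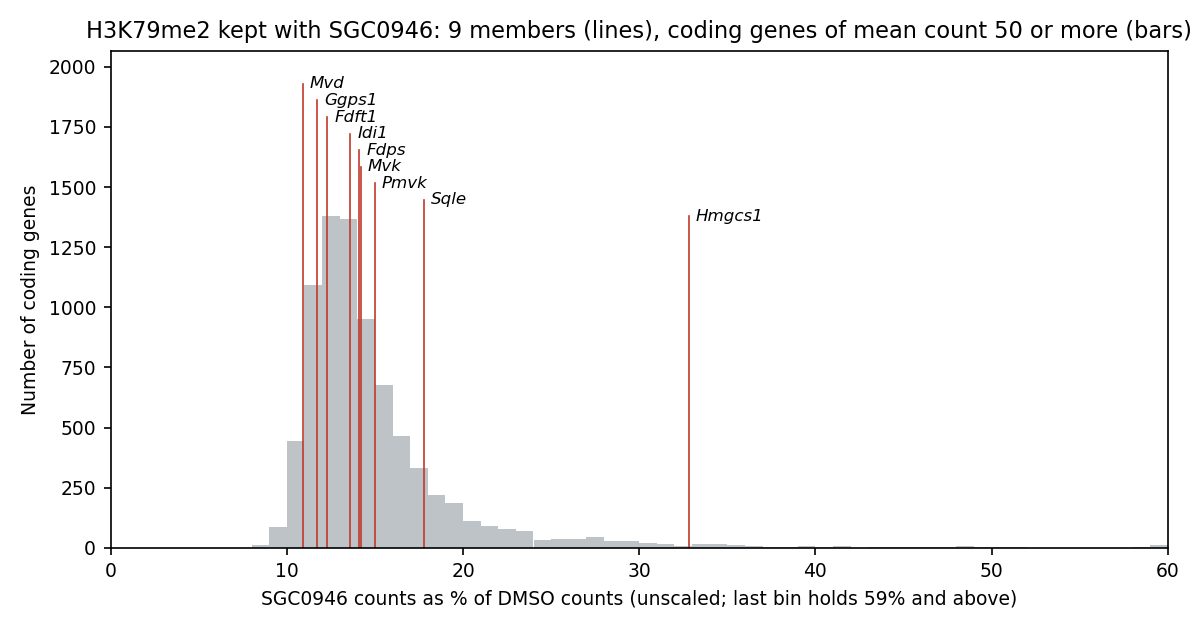
Histogram of the percentage of counts kept (mean SGC0946 count over mean DMSO count, horizontal axis) over the 7942 coding genes whose main region had a mean of at least 50 counts, with the 9 members marked as lines, Mvk and Pmvk, below that mean, included. Most members sit near the median of these genes, 13.7%, with Mvd at 10.9% on the low side and Sqle at 17.8% and Hmgcs1 at 32.8% on the high side.

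Relative to its library, the mark over Hmgcs1 was raised. Its share was 540, 516 and 525 counts per M library counts (CPM) in SGC0946 libraries and 276, 271 and 277 in DMSO libraries. The groups did not overlap, and 11.9% of coding genes likewise had all SGC0946 shares above all DMSO shares. The log2 fold change of the share was 0.94 ± 0.04 (SE; adjusted p = 9.7e-31). With library totals, Hmgcs1 was the only member whose share rose. Higher shares were found in 6.16% of 23367 regions tested and in 9.98% of 9089 coding genes. The call for Hmgcs1 was lost when the libraries were scaled on their sparsest 25% of regions (log2 fold change 0.25, adjusted p = 0.254), the highest p among its alternatives.

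The share fell in 5 members, Mvd, Idi1, Fdps, Fdft1 and Ggps1. Lower shares were found in 23.3% of regions and in 50.1% of coding genes, so 5 of 9 is close to the background of genes. Under TMM factors, DESeq2 size factors and the DESeq2 test 3 members were lower, Mvd, Fdft1 and Ggps1. Mvd had 19.5, 17.6 and 18.6 CPM with SGC0946, against 30.9, 27.8 and 28.6 with DMSO (log2 fold change -0.65 ± 0.12, adjusted p = 7.7e-06). Ggps1 had 29.1, 30.3 and 29.1 CPM with SGC0946, against 42.5, 42.0 and 44.3 with DMSO (log2 fold change -0.54 ± 0.10, adjusted p = 3.9e-06). In both genes every treated share lay below every DMSO share, as in 56.8% of coding genes.

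Fdft1 had 159, 167 and 179 CPM with SGC0946, against 241, 227 and 230 with DMSO (log2 fold change -0.47 ± 0.05, adjusted p = 6.3e-12). Idi1 had 22.7, 23.9 and 20.0 CPM with SGC0946, against 27.7, 27.3 and 28.6 with DMSO (log2 fold change -0.33 ± 0.11, adjusted p = 0.0212). Fdps had 52.7, 45.2 and 46.1 CPM with SGC0946, against 62.3, 54.4 and 58.0 with DMSO (log2 fold change -0.28 ± 0.08, adjusted p = 0.00703). The shares of these 3 genes did not overlap between the groups either. Mvd, Fdft1 and Ggps1 kept theirs under all alternatives run, with adjusted p of at most 0.00369, 8.6e-04 and 0.0036. Idi1 lost its call without SGC0946 replicate 1 (adjusted p = 0.066) or replicate 3 (0.169), and Fdps lost it without SGC0946 replicate 2 (0.0544). Under TMM factors, DESeq2 size factors and the DESeq2 test, Idi1 had adjusted p of 0.24, 0.285 and 0.366 and Fdps of 0.264, 0.338 and 0.407.

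The share test found no difference for the remaining 3 members at these counts. Sqle had 122, 124 and 120 CPM with SGC0946, against 115, 116 and 119 with DMSO (log2 fold change 0.06 ± 0.06, adjusted p = 0.478). The treated shares of Sqle all lay just above the DMSO ones, and its call depended on the scaling. It was higher under TMM factors (log2 fold change 0.20, adjusted p = 0.0175) and lower under scaling on the sparsest regions (log2 fold change -0.63, adjusted p = 9.5e-04). Mvk had 0.958, 2.33 and 3.39 CPM with SGC0946, against 2.99, 2.71 and 2.31 with DMSO (log2 fold change -0.27 ± 0.36, adjusted p = 0.661). Pmvk had 4.47, 2.33 and 1.69 CPM with SGC0946, against 3.11, 3.41 and 3.23 with DMSO (log2 fold change -0.18 ± 0.32, adjusted p = 0.743). Leaving out SGC0946 replicate 1 turned Mvk to 0.10 and leaving out SGC0946 replicate 3 turned Pmvk to 0.07, both log2 fold changes. The groups overlapped in both kinases, and a change of the size seen in Mvd was not detectable at their depth.

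The median coding gene had a share log2 fold change of -0.29, and the choice of scaling moves this centre. It was -0.15 under TMM factors, -0.14 under DESeq2 size factors and -0.99 when scaled on the sparsest regions. Set against that median, Hmgcs1 stood 1.23 above it and Sqle 0.35 above, while Mvd stood 0.36, Ggps1 0.26 and Fdft1 0.18 below it, all in log2 units. Mvk, Pmvk, Idi1 and Fdps lay within 0.10 of it. Scaling moves all regions together, so these distances hardly depend on it by construction. Of all regions past the threshold in either direction, 20.9% were higher under library totals, 35.7% under TMM factors, 38.2% under DESeq2 size factors, 46.9% in the DESeq2 test and 1.42% under scaling on the sparsest regions.

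**Figure D4:**
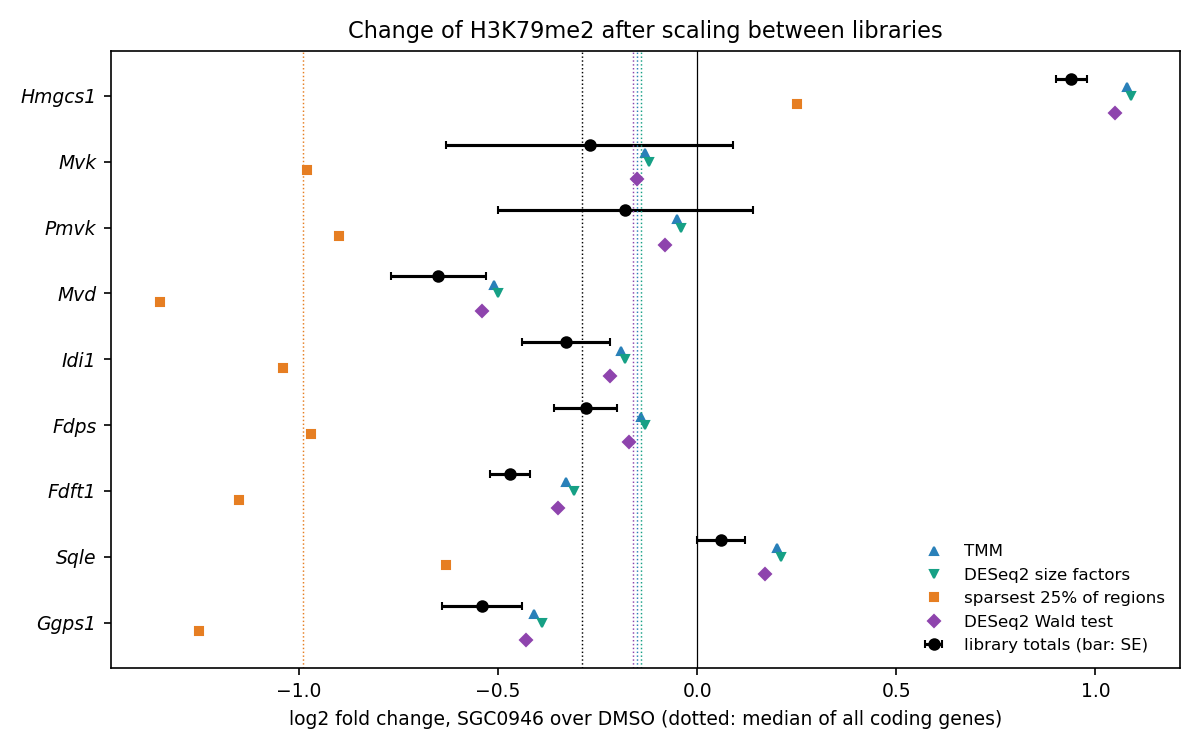
Log2 fold change of the share of counts, SGC0946 over DMSO (horizontal axis, error bars 1 SE, 3 libraries each), of the main region of each member under library totals and under 4 alternatives, with the median coding gene of each drawn as a dotted line. Hmgcs1 stands apart on the right at 0.94 and Mvd furthest left at -0.65, and the sparse-region scaling shifts all members to the left together.

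Summed over the 9 main regions, the treated libraries held 2976, 2790 and 2783 counts, against 13424, 13098 and 15432 in DMSO libraries, or 20.4% kept. Without Hmgcs1 the kept percentage of the sum was 13.7%. Hmgcs1 supplied 56.8, 55.6 and 55.7% of the members' counts with SGC0946, against 34.4, 35.1 and 35% with DMSO. Fdft1 supplied 16.7, 18 and 19% with SGC0946, against 30.1, 29.4 and 29.1% with DMSO. Expressed as CPM, the 9 members together had 950, 928 and 943 with SGC0946 and 802, 771 and 791 with DMSO. Without Hmgcs1 this order turned round, with 410, 412 and 418 CPM with SGC0946 and 526, 500 and 514 with DMSO.

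Within genes, the further regions could be set against the main one in the same libraries, which needs no scaling. In Hmgcs1 the 2 further regions held 0.71, 0.903 and 0.452% of the main region's counts with SGC0946, against 1.67, 1.17 and 1.52% with DMSO. The groups did not overlap, and the further regions kept 15.5% while the main region kept 32.8%. In Ggps1 the order was the other way, with 5.49, 6.59 and 5.81% with SGC0946, against 4.35, 3.37 and 3.47% with DMSO. Both comparisons reached an exact 2-sided permutation p of 0.1, the smallest possible, and those in Mvd, Fdft1 and Sqle had p of 0.4, 0.3 and 0.2, so none of the 5 could pass an adjusted threshold. These ratios rest on few reads, 12, 14 and 7 for the further Hmgcs1 regions with SGC0946 and 77, 54 and 82 with DMSO.

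Over all 9 further regions the treated density was 3.61 to 7.7 counts per kb, spanning the 6.13 of the sparsest regions, and the DMSO density was 23.2 to 45.4. In the share test 8 of them had enough counts, and 0 passed (edgeR, smallest adjusted p = 0.527). All 9 had fewer unscaled counts with SGC0946, but each passed the count filter through its DMSO libraries. The part of unrelated reads in them was not tested.

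Neighbouring genes within 15 kb were read for contrast. Distances are to the member's gene span. Next to Fdft1, 2626 bp away, a region over Ctsb, the lysosomal protease cathepsin B, held 2893, 2645 and 2625 counts with SGC0946, against 5582, 6112 and 6926 with DMSO. Fdft1 kept 12.3% and its share fell, whereas the Ctsb region kept 43.8% and its share rose (log2 fold change 1.36, adjusted p = 2.9e-41). The region beside Mvd, 71 bp away over Cyba and Il17c, kept 16.8% (share log2 fold change -0.03, adjusted p = 0.821). Beside Ggps1, 299 bp away, the Arid4b region kept 12.1% and its share fell (log2 fold change -0.50, adjusted p = 3.6e-11), close to the 11.7% kept by Ggps1. Regions over Tbce, 10001 bp from Ggps1, and Wdr37, 14435 bp from Idi1, kept 12.7% and 11.8%. Flanking Hmgcs1 were 2 short regions outside coding genes, 1941 bp below and 289 bp above the gene, which kept 36.8% and 29.6%. They held 11, 3 and 7 counts and 6, 6 and 4 counts with SGC0946, against 13, 24 and 20 counts and 23, 12 and 19 counts with DMSO. The sparsest 25% of all regions kept 28.1%, and the share tests of these flanks gave adjusted p of 0.051 and 0.244 (edgeR).

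Genes whose CPM per kb in the 6 libraries most resembled that of a member were found among 7941 coding genes whose main region had a mean of at least 50 counts, by the largest log2 difference in any library. For Hmgcs1 these were Atp6v0c, a subunit of the vacuolar proton pump (0.078), Arpc1b, a subunit of the actin-nucleating Arp2/3 complex (0.080), and Lcp1, the actin bundler L-plastin (0.091). They kept 33.2, 30.7 and 35.5% of their counts, which follows from the way they were chosen. For Mvd the nearest were Abca3, a lipid transporter (0.066), Tmem192, a lysosomal membrane protein (0.070), and Iffo2 (0.084), which kept 11, 11.3 and 10.5%, again fixed by the choice.

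The steps around these enzymes were read from 4 further gene lists. All listed genes with a region, 29 in number, had fewer unscaled counts with SGC0946, as nearly all genes did. Among 10 genes of later cholesterol synthesis, from lanosterol synthesis onward, the share rose in 1, fell in 5 and passed in neither direction in 4, with a median log2 fold change of -0.42. The riser was Msmo1, the sterol C4-methyl oxidase (log2 fold change 0.33 ± 0.05, adjusted p = 3.8e-07, 21.5% kept), whose change turned to -0.35 (adjusted p = 0.0815) under scaling on the sparsest regions. Its counts were 537, 475 and 502 with SGC0946, against 2265, 2216 and 2560 with DMSO. Those that fell included Lss, the lanosterol synthase (-0.66), Sc5d (-0.64), Cyp51 (-0.53) and Dhcr7 (-0.51), each a log2 fold change of the share. Dhcr7 lost its call in the DESeq2 test (adjusted p = 0.0678).

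Of 4 genes that supply acetyl units, Acss2 had no region. The share fell in Acat1, the mitochondrial acetoacetyl-CoA thiolase (log2 fold change -0.76 ± 0.08, adjusted p = 2.5e-12), and in Acly, ATP citrate lyase (log2 fold change -0.48, adjusted p = 6.0e-06), and 1 other passed in neither direction. Among 11 users of farnesyl and geranylgeranyl diphosphate, Rabggta had no region, the share rose in 1, fell in 4 and passed in neither direction in 5. Nus1, a subunit of the dolichol-making prenyltransferase, rose (log2 fold change 0.17 ± 0.05, adjusted p = 0.0019), a call lost without SGC0946 replicate 3 (adjusted p = 0.0735) and turned to -0.50 (adjusted p = 0.0165) under scaling on the sparsest regions, while its partner Dhdds fell (log2 fold change -0.89 ± 0.19, adjusted p = 7.9e-05). Dhdds rested on 31, 16 and 17 counts with SGC0946 and 205, 238 and 253 with DMSO. Pggt1b, a subunit of a protein prenylating enzyme (log2 fold change -0.40), Pdss1 (-0.44) and Cox10 (-0.58) also fell, but Pdss1 (adjusted p = 0.153) and Cox10 (0.106) lost their calls in the DESeq2 test, and Cox10 also without SGC0946 replicate 1 (0.0815).

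Sterol control was read in 6 genes, of which the share rose in 1, fell in 4 and passed in neither direction in 1. Srebf2, which encodes SREBP-2, had 979, 989 and 1010 counts with SGC0946, against 8147, 8036 and 9309 with DMSO, and its share fell (log2 fold change -0.55 ± 0.04, adjusted p = 8.8e-18, 11.7% kept). Insig1, which holds the SREBP escort complex in the endoplasmic reticulum, had 326, 252 and 271 counts with SGC0946, against 1096, 1166 and 1368 with DMSO. Its share rose (log2 fold change 0.45 ± 0.07, adjusted p = 1.0e-07), with 23.4% kept, and turned to -0.24 (adjusted p = 0.21) under scaling on the sparsest regions. The share of its paralog Insig2 fell (log2 fold change -0.59, adjusted p = 3.9e-07), as did those of Mbtps1 (-0.45) and Mbtps2 (-0.25), the proteases that release SREBP. Mbtps2 lost its call under TMM factors, DESeq2 size factors and the DESeq2 test (adjusted p = 0.408, 0.483 and 0.54) and when SGC0946 replicate 1, SGC0946 replicate 3 or DMSO replicate 2 was left out (adjusted p = 0.0947, 0.0894 and 0.0613). Beside the 50.1% of coding genes with a lower share and 9.98% with a higher one, the medians of percentage kept in these lists, 12.2 to 14.7%, lay near the gene median of 14%.

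**Figure D5:**
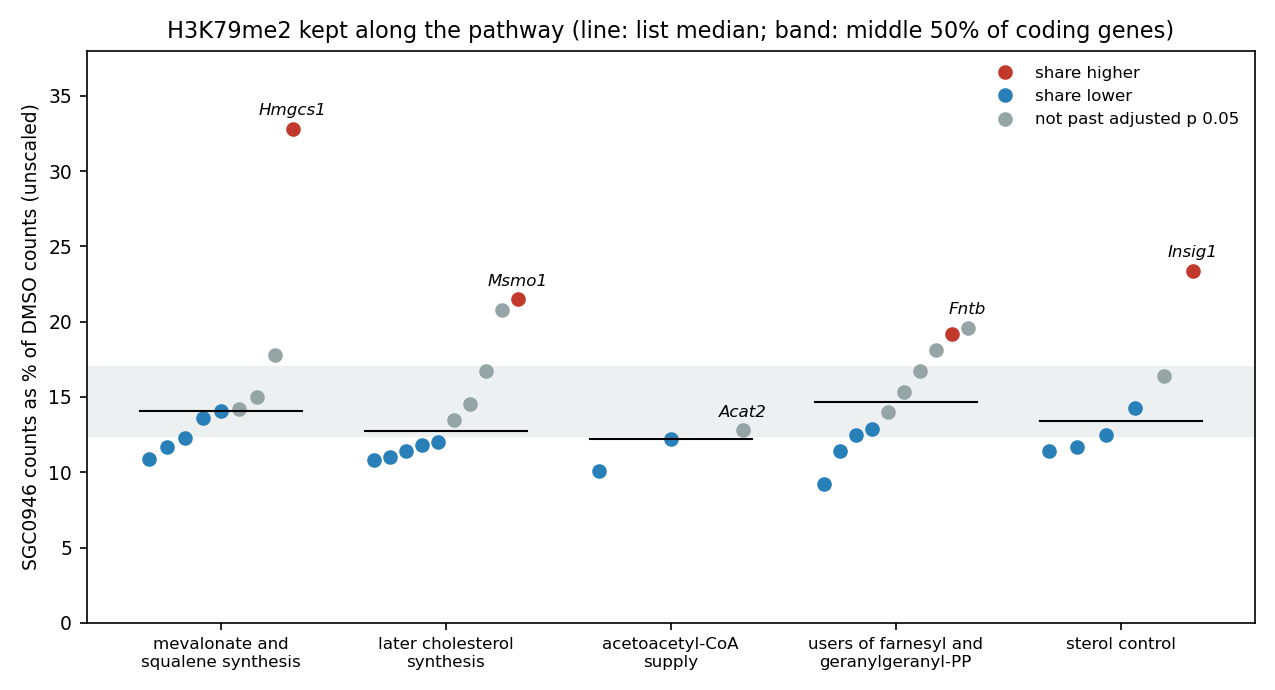
Percentage of counts kept (mean SGC0946 count over mean DMSO count, vertical axis) of the main region of each gene in the members' list and the 4 further lists, with colour for the call on the share of counts, a line at each list's median and a band over the middle 50% of coding genes, 12.4 to 17%. The list medians lie in or just below the band, and Hmgcs1 at 32.8%, Insig1 at 23.4% and Msmo1 at 21.5% stand highest.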

How the data were processed

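H3K79me2 ChIP-seq was measured in 3 SGC0946 and 3 DMSO libraries, and 1 input sample named in the labels was not used here. Per the labels' protocols, cells (10 to 20 M) were fixed for 10 min in 1% formaldehyde, and 10 ng of precipitated DNA went into libraries for single-end reads of 50 bp, with 40 M reads planned for each. The authors deposited whole-number read counts per region in a single table on mm10, with no scaling visible. The submitters' processing notes name, with no role given, R 3.6.3, ChIPseeker 1.20.0, bedtools 2.27.0, HOMER 4.11.1 and HISAT2. Which tool called regions or counted reads, whether regions were called on pooled samples, and how duplicate reads were treated are not given in the sources used here, and each could change the counts and totals.

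Regions were assigned to every gene whose RefSeq span (GRCm38.p6) they overlapped by any length, with zero-based starts printed 1-based (Python 3.11.15, pandas 2.3.3, numpy 2.4.6). Tests on the counts used R 4.3.3 and edgeR 4.0.16 (quasi-likelihood, filterByExpr, Benjamini-Hochberg adjustment over all regions tested, threshold 0.05), with library totals as library sizes (share) and with equal library sizes (unscaled). Shares are counts per M counts of the library's total in the table (CPM). Standard errors were derived as the absolute log2 fold change over the square root of F. The edgeR step was also run on simulated counts in which 200 regions were raised and none lowered. Regions changed in both directions in these data, so that run does not bear on the choice of scaling. Pairs of libraries in a group differed by more than sampling noise (chi-square per degree of freedom 1.32 to 2.378), so each library was counted once. Alternatives were TMM and DESeq2 1.42.0 size factors, scaling on the sparsest 25% of regions, the DESeq2 Wald test, count filters, other choices of region per gene, a replicate block and leaving out each library. Total counts limit precision most in the SGC0946 libraries, at 2.95 to 3.13 M against 16.7 to 19.5 M with DMSO. All members are named, as are listed genes whose share passed the threshold (1 is not reported here), neighbours within 15 kb and the 3 nearest genes to Hmgcs1 and Mvd. The members and lists were chosen with earlier results of these data known. Figures were drawn with matplotlib 3.10.9.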

Additional observations from a re-analysis of the deposited data

How the results depend on the processing

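Unscaled results for the members kept direction and call in all 115 alternatives run, and shares in 122 of 139. Both counts include taking the longest region and dropping regions over several coding genes, which repeat the main fit for these members. No unscaled alternative changed the scaling. In the main unscaled fit 99.7% of regions tested were lower, so agreement there was nearly fixed in advance. Scaling on the sparsest 25% of regions moved most. The Sqle log2 fold change turned to -0.63, higher regions fell to 195 and lower ones increased to 13503, and 0 members were higher and 8 lower, Mvk (adjusted p = 0.00803) and Pmvk (0.00594) included. With TMM factors and DESeq2 size factors, 2 members were higher, Hmgcs1 and Sqle, and 3 lower, and lower regions numbered 3524 and 3218. The DESeq2 Wald test gave 2505 higher and 2831 lower regions, with 3 members lower. Idi1 and Fdps lost their calls under TMM factors, size factors and the Wald test. With no count filter 2784 regions were higher, against 1440 in the main analysis, and with a mean of at least 50 counts 808, where unscaled lower regions numbered 11055 and Mvk and Pmvk were not tested. Without single libraries the Pmvk share log2 fold change ran from -0.69 to 0.07. That of Mvk ran from -0.70 to 0.10 without single SGC0946 libraries and was not tested when a DMSO library was left out. Leaving out each library gave 918 to 2155 higher regions, 4 to 5 lower members and a treated total of 16.6 to 18% of DMSO. Summing the regions of a gene changed no member's call. Taking the longest region or dropping regions over several coding genes could change none. Each main region was already the longest of its gene and overlapped no other coding gene. Libraries of the same number did not deviate together (correlations 0.01, -0.1141 and -0.0136 over 11055 regions), and a replicate block gave 1414 higher and 5202 lower regions with 1 member higher and 5 lower. The cause of these changes was not tested. Depth limits Mvk, Pmvk and the further regions.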
